A study of Schizosaccharomyces pombe with 144 samples.

Results

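The genes described here encode the 10 enzyme steps that take glucose to pyruvate in the fission yeast Schizosaccharomyces pombe. They are hxk2, pgi1, pfk1, fba1, tpi1, tdh1, pgk1, gpm1, eno101 and pyk1. They were chosen by name, with 1 gene for each step, and make up 10 of the 5157 genes of the table, all of them present and measured in every library. Glycolysis first spends ATP to phosphorylate glucose and split it into triose phosphates, and then earns ATP and NADH as the trioses are oxidised to pyruvate. In growing yeast it carries most of the carbon to ethanol, and its enzymes are among the most abundant proteins of the cell. Fructose-1,6-bisphosphatase reverses the committed step when cells make sugar instead, and its gene fbp1 is a textbook case of repression by glucose in fission yeast.

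The values come from total RNA sequencing of a meiotic time course, in 10 libraries with 1 library per stage. One library, called mitosis here, came from asynchronous growing cells, and 9 libraries cover the hours of meiosis from 0 h to 8 h in steps of 1 h. All 10 came from strain SPB2819, wild type for the histone methyltransferase gene clr4, so that no library carries a mutant Clr4 and no comparison between genotypes is made. SPB2819 is a diploid, h-/h- and ade6-M210/ade6-M216, in which both copies of pat1 are deleted (pat1::NatR) and an analog-sensitive copy, pat1-as(L95A)::HygR, is present on both homologues. Further loci carry his7+::lacI-GFP, lys1::MatPc-Bleo and, beside a centromere, cen2(D107)::KanR-ura4+-lacO. Pat1 is the kinase that holds back meiosis, and the analog-sensitive form can be switched off by an inhibitor. Growth before the course was exponential in the rich medium YES, per the labels, but the labels say nothing of the medium, sugar and inhibitor schedule of the course itself. Growth conditions and stage therefore cannot be told apart between mitosis and any hour of the course. Nor can a change of medium or inhibitor between the hours be told apart from stage.

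RPKM values are reads scaled to the length of a gene and to the depth of its library, which was an estimated 15000000 reads at 6 h, the lowest, and 20700000 in mitosis, the highest. The estimated reads behind a glycolytic gene ran from 5439 (hxk2 at 2 h) to 236884, so that the exact Poisson 95% interval was nowhere wider than 2.67% to a side. That interval covers counting error only. With 1 library per stage no difference has a replicate check, and no test was made. Genes are sorted by size of change alone, 4-fold or 2-fold on the log2(RPKM + 1) scale, and 1 of the libraries had to reach 5 RPKM. Of 8 stage markers, the meiotic cohesin gene rec8 was highest at 3 h (248 RPKM). The division gene spo4 was highest at 6 h (1457 RPKM) and the spore coat gene isp3 at 8 h (134839.9 RPKM). Among the hours, the entry genes ste11 and mei2 were highest at 0 h and the division gene mei4 at 5 h. The DNA synthesis gene cdc22 was also highest at 0 h (1861 RPKM), with 323 at 1 h and 893 at 3 h. The growing-cell marker rpp203 read 1320 RPKM in mitosis, 60.0 at 0 h and 439 at 4 h. Against mitosis, isp3 (6766 against 91.2 RPKM), spo4 (31.4 against 0.75) and rec8 (222 against 2.67) were already higher at 0 h. The isp3 transcript held 0.01% of the summed RPKM in mitosis and 18.5% at 8 h, and the median change of all genes against 0 h was -0.78 log2 at 7 h and -0.47 at 8 h. Values rescaled by the median ratio over genes, which brings those medians to 0.01 and 0.04, are given wherever they turn a direction or move a count by over 1.5 times.

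Together the 10 genes held 4.26% of the summed RPKM of all genes in mitosis. From 0 h to 2 h their share was 3.16%, 1.68% and then 1.34%, its lowest. From 3 h to 5 h it was 1.70%, 1.96% and 2.28%, and from 6 h to 8 h it was 2.17%, 2.03% and 1.68%. In bulk RNA, fewer cells that express a gene and less of its RNA per cell cannot be told apart. By share, the course was a steep loss over the first hours, a partial return with its top at 5 h, and a second, shallower loss. The low at 2 h held after rescaling, but the return did not keep its place or size. The rescaled sums at 0 h, 2 h and 5 h were 16072, 9407 and 15972 RPKM. The sum at 7 h, 19807 RPKM, was the highest of the hours and above 0 h, and that at 8 h was 14275 RPKM. The share of isp3 was 7.48% at 5 h and 15.6% at 7 h, and its part in the later share of the glycolytic genes was not tested. The summed level of the genes was 35716 RPKM in mitosis and 9721 RPKM at 2 h. The 7 genes from fba1 to pyk1 were highest in mitosis, whereas pgi1 was highest at 0 h, pfk1 at 3 h and hxk2 at 7 h. In mitosis the highest of the genes, fba1, stood 28.3-fold above the lowest, hxk2, and at 3 h the range between the highest and the lowest was 10.7-fold.

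**Figure D1:**
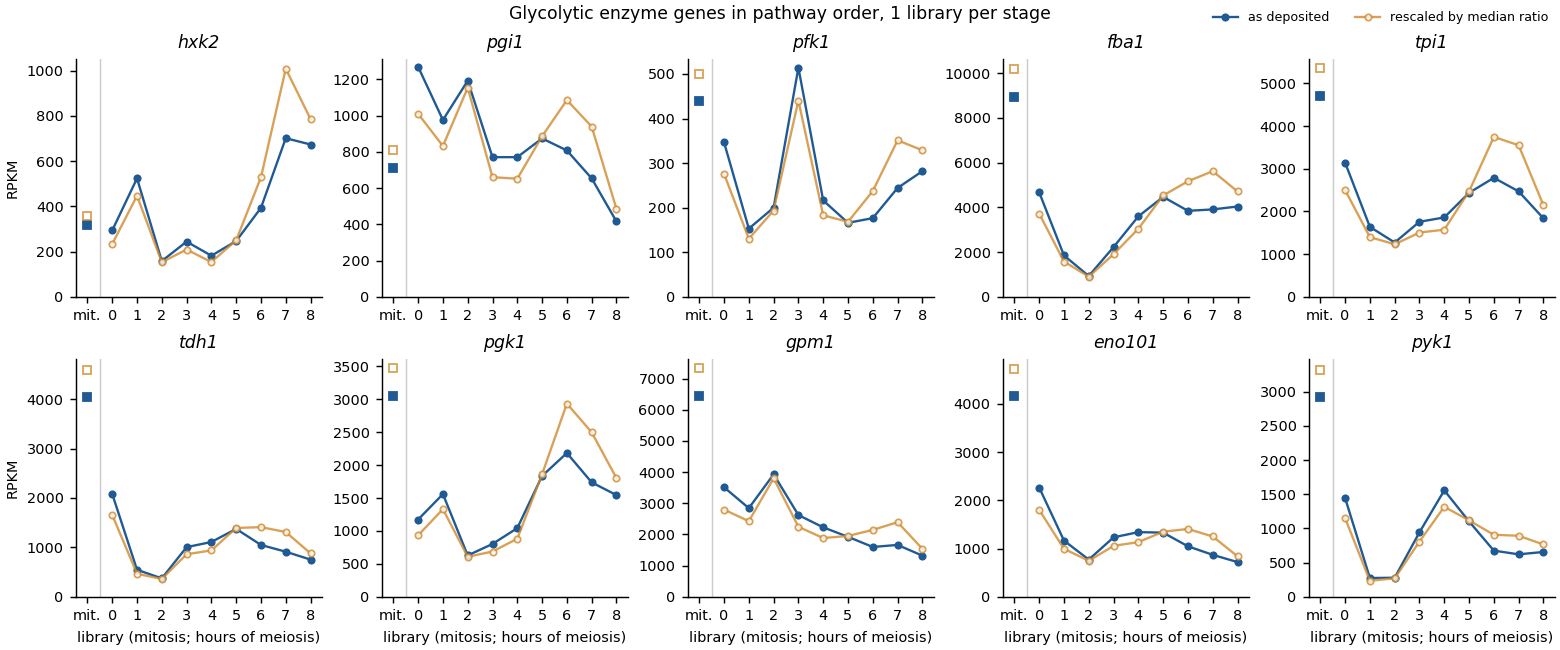
RPKM of each glycolytic gene, in pathway order, in growing cells (mit., squares) and at 0 h to 8 h of meiosis (circles), with 1 library per stage, as deposited (filled) and rescaled by the median ratio over genes (open). The genes from fba1 to pyk1 start from their highest level in mitosis, fba1, tpi1, tdh1 and pyk1 dip at 1 h or 2 h, and the rescaled values lie above the deposited ones from 6 h to 8 h.

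The enzymes of the upper steps did not share that course. Hexokinase, encoded by hxk2, traps glucose in the cell as glucose 6-phosphate. The level of hxk2 was 316 RPKM in mitosis and 293, 524, 158, 244, 182, 247, 393, 702 and 674 RPKM hour by hour from 0 h to 8 h. It was the only one of the 10 genes at a higher level at 8 h than in growing cells, 2.13-fold higher (1.09 log2), and the value at 1 h stood above both of its neighbours. Glucose-6-phosphate isomerase, from pgi1, turns glucose 6-phosphate into fructose 6-phosphate. Its levels were 712 RPKM in mitosis and 1269.6, 976, 1193, 771, 771, 874, 808, 654 and 416 RPKM over the same hours. The gene was thus 1.78-fold higher at 0 h than in growing cells and had its lowest level at the end. Phosphofructokinase, from pfk1, makes fructose 1,6-bisphosphate and commits sugar to glycolysis. The level of pfk1 was 440.2 RPKM in mitosis and 347, 153, 199.9, 514, 216, 166, 176, 244 and 282 RPKM from 0 h to 8 h. The single library at 3 h stood 2.57-fold above 2 h and 2.38-fold above 4 h, and as deposited the other hours from 1 h on lay under the levels of mitosis and 0 h. Rescaled, 7 h and 8 h stood above 0 h.

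Aldolase and triose phosphate isomerase, the enzymes that split the sugar and interconvert the pieces, dipped at 2 h. Aldolase is encoded by fba1, the most abundant transcript of all genes in the mitosis library. Its levels were 8933 RPKM in mitosis and 4671, 1848, 927, 2224, 3595, 4466, 3844, 3906 and 4036 RPKM from 0 h to 8 h. At 2 h fba1 was 9.64-fold under growing cells, and at 5 h it was 4.82-fold above 2 h and within 1.05-fold of its level at 0 h. Rescaled, it stood above 0 h from 5 h to 8 h, with 5616 RPKM at 7 h against 3716 at 0 h. The isomerase gene tpi1 read 4712 RPKM in mitosis and 3143, 1637, 1271, 1756, 1859, 2435, 2787, 2469 and 1838 RPKM over the course. Its dip was shallower, 3.71-fold under growing cells at 2 h, and its later maximum came at 6 h.

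The lower steps, which return ATP, did not share a single course. Glyceraldehyde-3-phosphate dehydrogenase, from tdh1, oxidises the triose and forms NADH. The levels of tdh1 were 4043 RPKM in mitosis and 2082, 545, 372, 1004, 1108, 1374, 1048, 912 and 752 RPKM from 0 h to 8 h. At 2 h it was 10.9-fold under mitosis, as deposited the largest difference of any of the 10 genes at any hour, while rescaled it was second to pyk1 at 1 h (-3.67 against -3.83 log2). Pyruvate kinase, from pyk1, makes the last ATP and releases pyruvate. Its levels were 2921 RPKM in mitosis and 1445, 274, 278, 943, 1557, 1102, 675, 621 and 655 RPKM over the course. The low was at 1 h, 10.7-fold under mitosis, and at 4 h pyk1 stood 1.08-fold above its level at 0 h before a second, smaller drop. Scaled to equal sums over all genes, 4 h lay under 0 h (2199 against 2260). The low was then at 2 h (384 against 398 at 1 h).

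Enolase, from eno101, makes phosphoenolpyruvate, the substrate of pyruvate kinase. The levels of eno101 were 4156 RPKM in mitosis and 2265, 1164, 769.8, 1232, 1339.8, 1329.7, 1046, 869 and 718 RPKM from 0 h to 8 h. It dipped at 2 h and ended lower still at 8 h as deposited, while the rescaled values put 2 h lowest, at 745 against 838 RPKM at 8 h. Phosphoglycerate kinase, from pgk1, makes the first ATP of the pathway. Its levels were 3048 RPKM in mitosis and 1173, 1559.7, 627, 802, 1042, 1836, 2183, 1738 and 1544 RPKM over the course. After the low at 2 h, pgk1 at 6 h stood 1.86-fold above 0 h. Phosphoglycerate mutase, from gpm1, moves the phosphate group between carbons. The levels of gpm1 were 6435 RPKM in mitosis and 3512, 2841, 3926, 2619.5, 2226, 1921, 1596, 1662 and 1317 RPKM from 0 h to 8 h. It had no dip at 2 h, where it was the highest of the 10 genes, and it was lowest at 8 h, 4.88-fold under growing cells.

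In the reference annotation 7 of the 10 genes overlap an annotated gene on the opposite strand, and gpm1 also overlaps a protein-coding gene on its own strand. For tpi1, tdh1 and eno101 no overlapping gene is annotated. No source used here says whether strand was used in counting, so reads of overlapping genes cannot be told apart for those 7.

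Growing cells were set against each hour to ask how far glycolytic transcripts had moved from the mitotic state. All of the 9 comparisons share the single mitosis library. At 0 h, 9 of the 10 genes stood under mitosis, with a median of -0.87 log2 against 0.52 for all genes. Scaled to equal sums over all genes, hxk2 (0.28) and pfk1 (0.04) were above mitosis as well. The 2 genes past 2-fold were pgk1, 2.60-fold lower, and pyk1, 2.02-fold lower, beside 9.54% of all genes 2-fold or more lower. Rescaled, 7 of the 10 were past 2-fold, since fba1, tpi1, tdh1, gpm1 and eno101 crossed it, with a median of -1.39. The 9.54% is the share as deposited. Rescaling also raised the count of all genes lower, which is given in the part on how results depend on the processing. Scaled to equal sums none was 2-fold lower, with pgk1 at -0.99 and pyk1 at -0.63, so that the call for both rests on the scaling. None was 2-fold or more higher, beside 29.1% of all genes. The isomerase gene pgi1, at 0.83 log2, was above mitosis, and past 2-fold scaled to equal sums (1.22).

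At 1 h, fba1, tdh1 and pyk1 were 4-fold or more under mitosis, or 3 of 10 genes beside 2.25% of all genes. The median over the 10 was -1.52 log2 against 0.46 for all genes. At 2 h pgk1 and eno101 joined them, making 5 of 10 beside 3.67% of all genes, with a median of -2.08 against 0.23. Rescaled, tpi1 was also past 4-fold at 2 h (-2.12). At 8 h the genes past 4-fold were tdh1, gpm1, eno101 and pyk1, or 4 of 10 beside 4.26% of all genes, with a median of -1.25 against -0.04. From 3 h to 7 h the counts past 4-fold were 2, 0, 0, 2 and 3 in turn, beside 1.72%, 1.23%, 3.67%, 8.92% and 7.97% of all genes. Rescaled they were 5, 2, 0, 0 and 0, beside 176, 136, 244, 316 and 230 of all genes. At 2 h and 8 h the rescaled counts were 6 and 4, against 5 and 4 as deposited, while the counts between them moved at every hour but 5 h. No rescaled count of all genes is given for 2 h and 8 h. The rescaled sum of the 10 genes was 14275 RPKM at 8 h, above 9828, 9407, 10372 and 11751 from 1 h to 4 h. The low at 2 h thus held under both scalings, but a low of the group at 8 h did not.

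**Figure D2:**
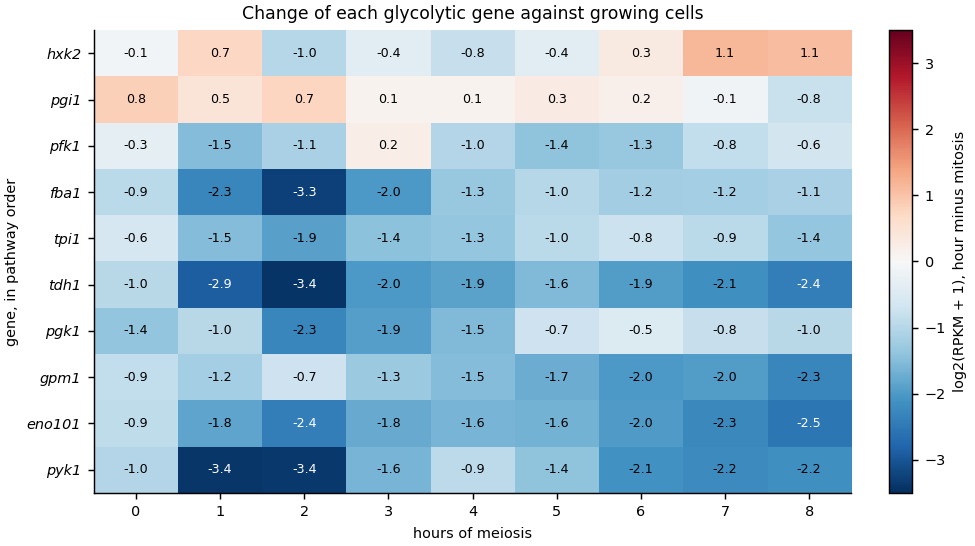
Change of each glycolytic gene (rows, in pathway order) at each hour of meiosis (columns) against growing cells, as the difference of log2(RPKM + 1) between single libraries, blue for lower and red for higher. The darkest cells are those of tdh1 and fba1 at 2 h and of pyk1 at 1 h and 2 h, and the only gene over 1 log2 higher is hxk2, at 7 h and 8 h.

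Within the course, the question was which steps changed once meiosis had begun, with 0 h as the shared reference. At 1 h only pyk1 was 4-fold or more under 0 h, 5.28-fold, beside 1.19% of all genes, and tdh1 lay just short of it at 3.82-fold. At 2 h fba1 (5.04-fold), tdh1 (5.60-fold) and pyk1 (5.20-fold) were past 4-fold, or 3 of 10 beside 1.88% of all genes. Together with eno101 (2.94-fold) and tpi1 (2.47-fold), 5 of 10 passed 2-fold downward, beside 13.1% of all genes. None was 4-fold higher at 2 h, beside 1.17% of all genes. Other steps moved less, with gpm1 at 0.16 log2 against 0 h, or -0.02 scaled to equal sums, and pgi1 at -0.09, or 0.19 rescaled by the median ratio. Over all hours the genes 4-fold or more under 0 h at some hour were again fba1, tdh1 and pyk1, beside 13.5% of 5004 genes. That count rests on the libraries at 1 h and 2 h, since no gene was past 4-fold without both and pyk1 alone was without 2 h.

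For part of the genes the return began between 2 h and 3 h. At 3 h pfk1, fba1, tdh1 and pyk1 stood 2-fold or more above 2 h, or 4 of 10 beside 4.69% of all genes. The differences were 1.36 log2 for pfk1, 1.26 for fba1, 1.43 for tdh1 and 1.76 for pyk1. Levels of hxk2, tpi1, pgk1 and eno101 rose by less than 2-fold. Those of pgi1 (1193 to 771 RPKM) and gpm1 (3926 to 2619.5 RPKM) fell. The rise of pfk1 rests on the single library at 3 h, and at 5 h pfk1 was under its level at 2 h (166 against 199.9 RPKM). From 2 h to 5 h, a step chosen after the levels were seen, fba1, tdh1, pgk1 and pyk1 were 2-fold or more higher, beside 13.3% of all genes. The largest of these was the 4.82-fold of fba1, and pgk1 was 2.93-fold higher. The mutase gene gpm1 moved the other way over that step, 2.04-fold lower as deposited and -0.96 log2 rescaled.

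At the end of the course the genes had parted. Against 0 h, pgi1, tdh1, gpm1, eno101 and pyk1 were 2-fold or more lower at 8 h, or 5 of 10 beside 26.2% of all genes. The median of the 10 genes was -0.96 log2 against -0.47 for all genes. Rescaled, the count was 2 and the median -0.40. Of the 10 genes, 1 was 2-fold or more higher, hxk2 at 674 against 293 RPKM, beside 8.63% of all genes. Aldolase and phosphofructokinase genes stood a little under 0 h at 8 h as deposited, -0.21 log2 for fba1 and -0.30 for pfk1, and above it after rescaling. At 7 h the median of the 10 genes was -0.73 as deposited and 0.12 rescaled, so that no direction can be given for the group at that hour.

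The rank of each gene among all 5157 genes of its own library does not depend on the scaling between libraries. In mitosis fba1 ranked 1, gpm1 3 and tpi1 15, and 7 of the 10 genes were among the top 100. At 0 h 8 genes were in the top 100, at 1 h 4, and at 2 h gpm1 alone, at rank 9. At 0 h fba1 ranked 5, at 2 h 173, and by 4 h and 5 h it ranked 5 again. Ranks of tdh1 at 0 h, 2 h and 5 h were 25, 360 and 78, and those of pyk1 were 37, 449 and 117. Late in the course the ranks parted too, hxk2 moving from 433 at 0 h to 165 at 7 h and gpm1 from 8 to 59 at 8 h. Throughout, the lowest of the 10 genes stood at or above the 84.2nd percentile of all genes, so that even the low values at 1 h and 2 h were high for this table.

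**Figure D3:**
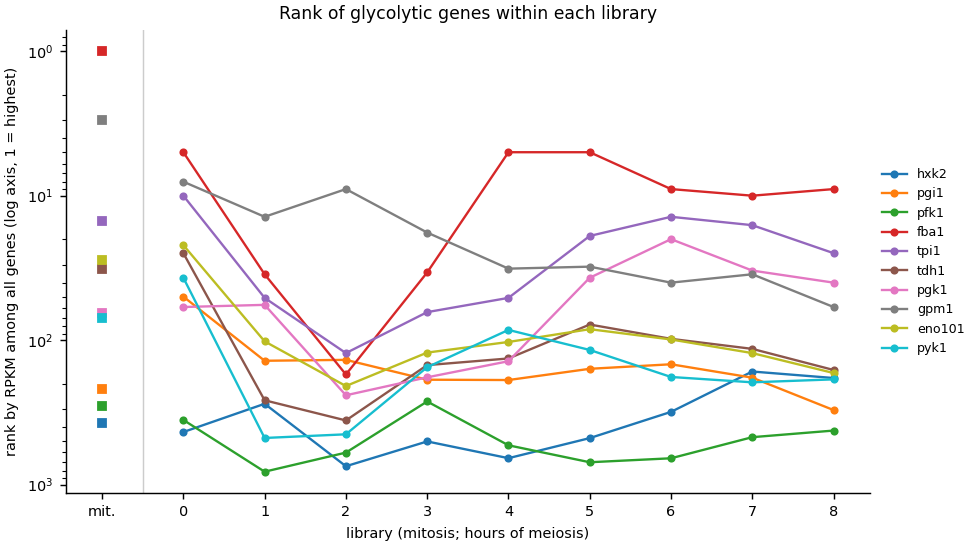
Rank of each glycolytic gene by RPKM among all genes of the same library (log axis, 1 is the highest level), in growing cells (mit., squares) and at 0 h to 8 h of meiosis (circles), 1 library per stage. The line of fba1 leaves the top of the plot at 1 h and 2 h, reaching rank 173, and is back at rank 5 at 4 h, while that of gpm1 goes from rank 3 in growing cells to between 8 and 59 in the hours of meiosis.

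Across the 10 libraries the members differed in how closely they followed one another. Pearson's r between the log2(RPKM + 1) of a gene and the mean of the other 9 was 0.97 for tdh1, 0.94 for tpi1, 0.87 for eno101, 0.84 for fba1 and 0.80 for pyk1. It was 0.58 for pgk1, 0.45 for pfk1 and 0.33 for gpm1, and -0.07 for hxk2 and -0.18 for pgi1. These are descriptions over 10 successive libraries that share a culture or strain and a scaling, with mitosis weighing heavily in each. Of 3634 other genes with a symbol, those with a course most like the mean of the 10 were cfh4 (r = 0.96), acs1 (0.95), prs5 (0.93), fas2 (0.92) and eng1 (0.92). The same measure taken against tdh1 gave cfh4 (0.96), gas1 (0.95), acs1 (0.94), fas2 (0.94) and but2 (0.92). Among these, acs1 encodes acetyl-CoA ligase and fas2 the alpha subunit of fatty acid synthase, and gas1 and eng1 encode glucan-acting enzymes of the cell wall. The acs1 level was 144 RPKM in mitosis and 84.8, 24.2 and 54.8 RPKM at 0 h, 2 h and 4 h.

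For 3 of the steps the table holds another gene for the same reaction, taken from a list of names and not from a search of the genome. Levels of such pairs were compared per length within each library. The second glyceraldehyde-3-phosphate dehydrogenase gene, gpd3, was high in the hours when tdh1 was low. As deposited gpd3 was highest at 1 h and tdh1 lowest at 2 h, and rescaled both hours were 2 h. Its levels were 608 RPKM in mitosis and 1324, 1967, 1823, 687, 323, 315, 314, 380.1 and 422 RPKM from 0 h to 8 h. The tdh1 level was 6.66 times that of gpd3 in mitosis and 1.57 times at 0 h, and gpd3 was then 3.61 times tdh1 at 1 h and 4.91 times at 2 h. At 3 h tdh1 was again the higher, 1.46 times gpd3, and at 5 h 4.36 times. A ratio within a library is free of the scaling between libraries. The 2 levels summed to 4650 RPKM in mitosis and to 3406, 2195 and 1174 RPKM at 0 h, 2 h and 8 h, so that the sum at 2 h stayed closer to its level at 0 h than tdh1 alone did. Both genes encode the same kind of enzyme, and how reads that fit both were counted is not stated in any source used here.

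The second hexokinase gene, hxk1, read 149.7 RPKM in mitosis and 266, 177, 103, 196, 210.4, 269, 398, 529.8 and 514 RPKM over the course. Like hxk2 it had its lowest hour at 2 h and its highest at 7 h, but the peak of hxk2 at 1 h had no counterpart in hxk1. The ratio of hxk2 to hxk1 was 2.96 at 1 h and between 0.86 and 2.11 in all the other libraries. The second enolase gene, eno102, was far lower, with 2.34 RPKM in mitosis and 11.8, 6.07, 1.58, 2.88, 5.08, 5.06, 5.74, 8.84 and 24.4 RPKM from 0 h to 8 h. Its value at 2 h rested on an estimated 48 reads, with an exact Poisson 95% interval of 35 to 64. It was highest at 8 h, where eno101 was still 29.4 times as high, against 191 times at 0 h.

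The gene of the opposing step stood far above growing cells. The bisphosphatase gene fbp1 read 5.66 RPKM in mitosis and 206, 145, 171, 451, 893, 1008, 964, 825 and 644 RPKM from 0 h to 8 h. At 0 h it was 36.4-fold above growing cells, and at 8 h 114-fold. The ratio of fbp1 to pfk1 was 0.01 in mitosis, 0.60 at 0 h, between 0.86 and 0.95 from 1 h to 3 h, 4.13 at 4 h and 6.08 at 5 h, and then 2.29 at 8 h. From 4 h on the transcript of the reverse step was therefore the more abundant of the pair, under any scaling. Of this list of 4 measured genes (gpd3, hxk1, eno102 and fbp1; glk1 and gpm2 were not in the table), 3 were 2-fold or more above mitosis at 0 h, or 2 rescaled, beside 29.1% of all genes, and the median was 1.53 log2 against 0.52. At 2 h against 0 h, 1 was 4-fold or more lower, eno102 (-2.32 log2), beside 1.88% of all genes, and none higher, with hxk1 at -1.37, gpd3 at 0.46 and fbp1 at -0.27, or 0.01 rescaled.

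**Figure D4:**
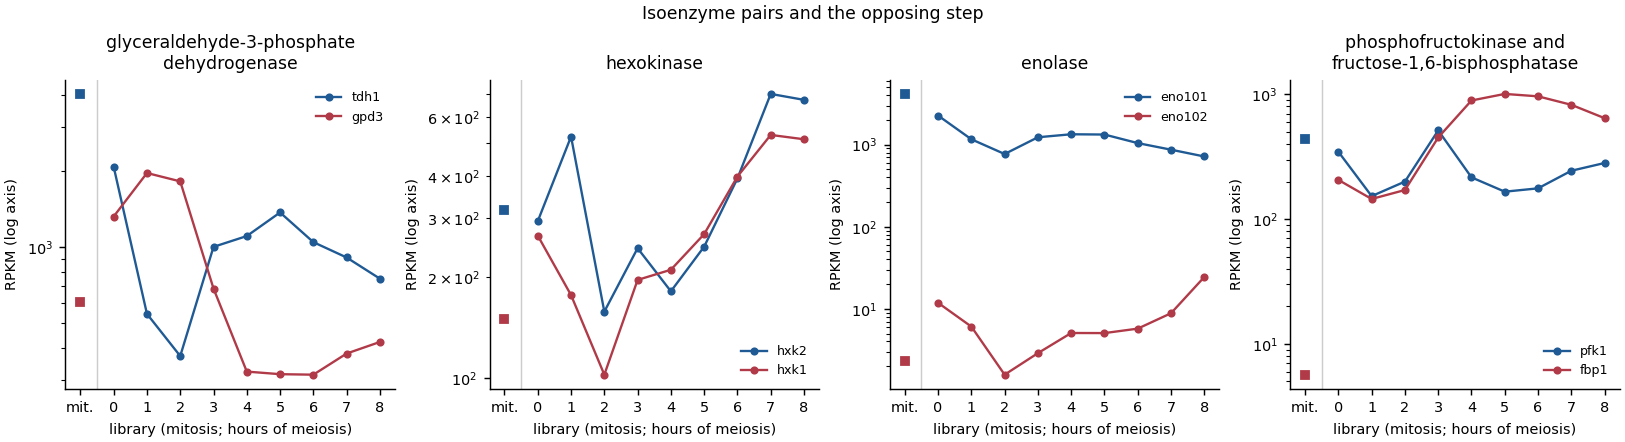
RPKM (log axes) of glycolytic genes and of the genes for the same or the opposing step, in growing cells (mit., squares) and at 0 h to 8 h of meiosis (circles), 1 library per stage. The lines of tdh1 and gpd3 cross between 0 h and 1 h and again between 2 h and 3 h, hxk1 and hxk2 both climb to 7 h, eno102 stays far under eno101, and fbp1 stands above pfk1 from 4 h on.

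Past pyk1, pyruvate can be turned to ethanol by pyruvate decarboxylase and alcohol dehydrogenase, or be used in mitochondria. Of 12 measured genes of this branch (pdc102 was listed at 0 in all libraries), 2 stood 4-fold or more under 0 h at 2 h and none above, beside 1.88% of all genes lower, with a median of -0.46 log2 against -0.26 for all genes. They were mae2, the gene of malic enzyme, which makes pyruvate from malate, at -3.41 log2, and adh1, the main alcohol dehydrogenase gene, 8.06-fold lower. The adh1 level was 1394 RPKM in mitosis and 1475, 469, 183, 770.1, 952, 1009, 1146, 1116 and 922 RPKM over the course. It thus had its low at 2 h like tdh1 and fba1, but was 1.06-fold above growing cells at 0 h, a direction that turned on rescaling (-0.43 log2). The decarboxylase gene pdc101 read 2626 RPKM in mitosis and 936, 1016, 386, 635, 488, 518, 400.4, 369.9 and 351 RPKM, with -1.27 log2 at 2 h. The smaller alcohol dehydrogenase gene adh4 was 5.87-fold lower at 0 h than in mitosis, where it read 117 RPKM, and its change at 2 h against 0 h was -1.08.

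The decarboxylase genes exchanged places at the end. The level of pdc202 did not pass 31.1 RPKM up to 6 h, was 92.7 RPKM at 7 h, and reached 434 RPKM in the last library, 18.6-fold above 0 h. In growing cells it read 6.62 RPKM against 2626 for pdc101, and at 8 h it was 1.24 times pdc101. The level of pdc201 was 9.58 RPKM in mitosis and 152 at 0 h. In all, 6 of the 12 genes were 2-fold or more under 0 h at 8 h, beside 26.2% of all genes, or 3 rescaled. Only pdc202 was 2-fold higher, or 1 of 12, which is near the 8.63% of all genes. Genes of the pyruvate dehydrogenase complex kept apart from the dip, where the E1 alpha gene pda1 read 463, 513 and 574 RPKM from 0 h to 2 h.

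**Figure D5:**
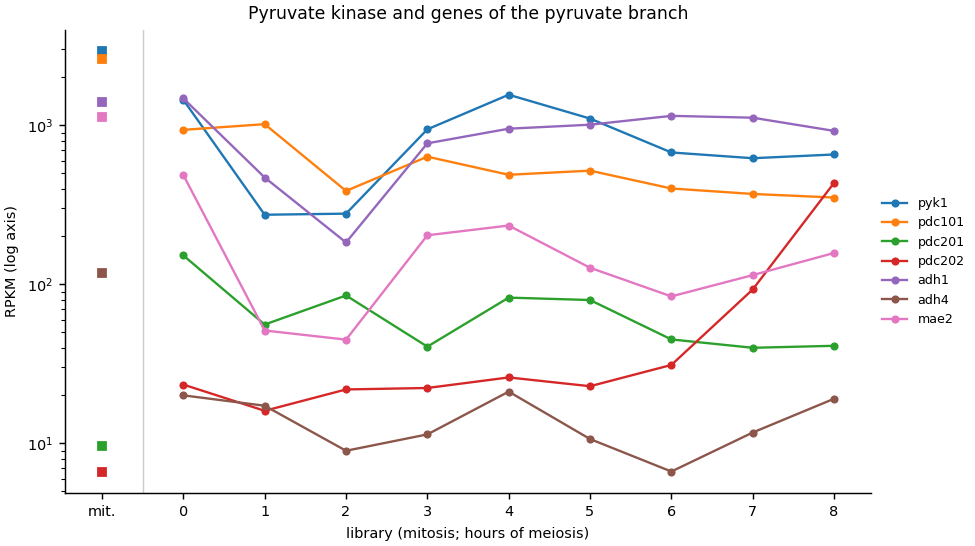
RPKM (log axis) of pyk1 and of the genes for turning pyruvate to ethanol or making it from malate, in growing cells (mit., squares) and at 0 h to 8 h of meiosis (circles), 1 library per stage. The lines of pyk1, adh1 and mae2 dip together at 1 h and 2 h, and that of pdc202 climbs from 31.1 RPKM at 6 h to 434 at 8 h, above pdc101.

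The citric acid cycle, which burns the product of glycolysis in mitochondria, took another course. Of 12 measured genes, with kgd1 and sdh4 left out for want of a matching name, 7 were 2-fold or more above growing cells at 0 h and none lower, beside 29.1% of all genes higher. The median was 1.19 log2, against 0.52 for all genes. After rescaling 4 were higher and 1 lower, with a median of 0.67 against 0.04. The malate dehydrogenase gene mdh1 read 173 RPKM in mitosis, 915 at 0 h and 1573 at 2 h. The citrate synthase gene cit1 read 165 RPKM in mitosis, 723 at 0 h and 1331 at 1 h. At 2 h no gene of the cycle was 4-fold from 0 h in either direction, and the median was -0.29 log2, or -0.01 rescaled. The members furthest from 0 h were the succinate dehydrogenase genes sdh2 (-1.04) and sdh1 (-0.64), mdh1 (0.78) and the isocitrate dehydrogenase gene idp1 (-0.73). At 8 h, 8 of the 12 were 2-fold or more under 0 h, beside 26.2% of all genes, or 2 rescaled, beside 553 of 4966 genes, and cit1 was back at 182 RPKM.

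Genes that bring in glucose or report on it did not share a course. Of 14 measured genes, 8 were 2-fold or more above growing cells at 0 h (7 rescaled) and none lower, beside 29.1% of all genes higher. At 2 h against 0 h, 1 was 4-fold or more higher, the secreted invertase gene inv1 (3.27 log2), and 1 lower, the hexose transporter gene ght2 (-2.35), beside 1.17% and 1.88% of all genes. The genes of the regulatory and catalytic subunits of protein kinase A, cgs1 and pka1, were at -1.74 and -1.40. The transporter gene ght5 read 98.9 RPKM in mitosis and 399.6, 1309, 222 and 916 RPKM from 0 h to 3 h. Levels of ght1 from 0 h to 2 h were 24.1, 525 and 23.5 RPKM. The single library at 1 h, where as deposited pfk1 and pyk1 were lowest and hxk2 stood above its neighbours, therefore also held the highest ght1 and ght5 levels. The part of this library in the glycolytic course at 1 h was not tested.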

How the data were processed

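The authors deposited RPKM values per gene for the 10 libraries, per the file headers, beside 10 columns named TPM that were not used because several sum to more than TPM can and they are not proportional to RPKM. Per the labels' protocols, total RNA was made into libraries with a stranded kit. For the whole series, the submitters' processing notes list STAR 2.7.3a and Bowtie 1.2.2, with cutadapt 1.18 and bcl2fastq 1.17. They also list SAMtools 1.9 and bedtools (2.26.0, 2.27.1), and as builds mm10 and ASM294v2. Not given in the sources used here are the counting tool, the annotation, the use of strand and the treatment of reads with several positions. RPKM is relative to the library, so a transcript that takes a large share lowers all others. The other 134 of 144 samples were not analysed here. The labels do not say that libraries came from separate cultures.

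Changes are differences of log2(RPKM + 1). Calls use 4-fold or 2-fold where 1 of the libraries reaches 5 RPKM, and are sizes, not tests. The calls were tried on simulated libraries with counting error only, in which a set of well-expressed genes was lowered. The rescaling was tried on a library doubled as a whole. Neither shows how calls behave with spread between cultures, or which scaling is right when a transcript takes a large share. Depth was estimated from the step between low values, with lengths from the reference ASM294v3 (5028 of 5157 genes matched), a build other than the authors', so reads per gene are estimates and no coordinates or sequences are given. Searching promoters for motifs was planned but not run. The 10 genes, the other lists and the comparisons were chosen with earlier results of these data known. Genes named outside the 10 are the 4 of each list with the largest change at 2 h against 0 h, the 5 of most similar course, and others singled out after their values were seen. The alternatives were pseudocounts of 0.1 and 5, rescaling by the median ratio or to equal sums over all genes, no filter or 20 RPKM, the other fold, leaving out hours, and a 3-point running mean for the hours of the lowest and highest level. Computing used SciPy 1.17.1, NumPy 2.4.6 and pandas 2.3.3 in Python 3.11.15, and plots used matplotlib 3.10.9.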

Additional observations from a re-analysis of the deposited data

How the results depend on the processing

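With 1 library per stage, the spread between cultures is unknown, and no paired analysis was possible because the result comes from no test. No called value changed sign under the alternatives run. Of the recomputed counts, 192 stayed within 1.5 times and 47 did not, but the settings differed widely. Under the pseudocounts and filters 1 count moved. Rescaling by the median ratio moved 17 counts and kept 19, and scaling to equal sums moved 13 and kept 23. At the other fold, 8 moved and 3 stayed (2-fold), and 6 moved and 1 stayed (4-fold). Among changes of single genes, 282 kept their direction and side of the 2-fold limit, 7 uncalled ones changed sign, 13 passed the limit and 10 lost it. These are 78 changes, each recomputed under several settings, and all 78 were kept under each pseudocount. Rescaling by the median ratio kept 61 of the 78, and scaling to equal sums kept 65. The hours of the lowest and highest levels moved as well, with 13 moved and 7 kept by a 3-point running mean. This mean cannot reach 0 h or 8 h, so the 5 highest hours at 0 h and the 3 lowest at 8 h had to move. Those moves say nothing of how stable the hours are. With the running mean the lows of fba1, tpi1 and tdh1 stayed at 2 h and that of pyk1 went from 1 h to 2 h. Those of hxk2 and pgk1 went from 2 h to 3 h, and that of pfk1 from 1 h to 5 h. The highest hour went from 0 h to 6 h for fba1 and tpi1 and to 5 h for tdh1. Rescaling moved 4 such hours. Under median-ratio rescaling the glycolytic genes 2-fold lower at 0 h than in mitosis were 7 (all genes 811, and 804 higher), and those 2-fold lower at 8 h than at 0 h were 2 (all genes 553, and 841 higher). Rescaling also gave 237 of all genes 4-fold lower at 1 h than in mitosis, 341 2-fold lower and 92 4-fold higher at 2 h than at 0 h, and 121 2-fold higher at 3 h than at 2 h (145 with a pseudocount of 5). Scaled to equal sums over all genes, 0 glycolytic genes were 2-fold lower and 1 higher at 0 h than in mitosis (2311 of all genes higher), and 2 were 4-fold lower at 1 h than at 0 h. From 3 h to 7 h the glycolytic genes 4-fold under mitosis were 5, 2, 0, 0 and 0 rescaled, and 0 at 3 h, 6 h and 7 h scaled to equal sums. All genes there were 176 at 3 h, 136 at 4 h and 230 at 7 h rescaled, and 56 at 3 h, 274 at 6 h and 247 at 7 h scaled to equal sums. Scaled to equal sums, counts of all genes were also 72 at 1 h and 139 at 8 h (4-fold under mitosis) and 982 at 2 h (2-fold under 0 h). At the other fold the glycolytic counts under mitosis were 0 at 0 h (4-fold) and 7 at 1 h (2-fold), then at 2-fold 7, 7, 5, 6 and 5 from 3 h to 7 h. Against 0 h they were 4 at 1 h (2-fold), 5 (2-fold) or 3 (4-fold) at 2 h, and 0 in both directions at 8 h (4-fold). At 4-fold, 0 stood above 2 h at 3 h and 1 at 5 h. Over any hour, 0 remained without 1 h and 2 h, and 1 without 2 h. The cause of these shifts was not tested.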

Other observations

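Fructose 2,6-bisphosphate is the small molecule that turns phosphofructokinase on and fructose-1,6-bisphosphatase off in yeast, and enzymes of the phosphofructo-2-kinase and bisphosphatase family make and remove it. The 7 genes whose reference product names such an enzyme or its family were found after the data were seen. They are given by their systematic names, as values only. For SPAC5H10.03, SPAC513.02 and SPBPB21E7.02c that product is phosphoglycerate mutase/6-phosphofructo-2-kinase family, which does not say which reaction each carries out. The level of SPAC5H10.03 was 189 RPKM in mitosis and 85.5, 34.1, 36.1, 33.2, 23.6, 17.1, 12.6, 14.5 and 23.6 RPKM from 0 h to 8 h, under mitosis at every hour. SPAC513.02 lay the other way, with 2.92 RPKM in mitosis, 43.7 at 0 h and 84.8 at 8 h. SPAC222.13c read 28.4 RPKM in mitosis, 93.2 at 0 h and 59.5 at 8 h, and SPAC144.17c read 13.0, 44.2 and 28.2. SPBPB21E7.02c was listed at 0 in mitosis and was at 5.80 RPKM at 7 h and 33.4 at 8 h. SPAC1687.21, named as a bisphosphatase, stayed between 135 RPKM (2 h) and 249 (8 h). SPAPB17E12.14c was lowest at 1 h, at 17.3 RPKM, and highest at 4 h, at 68.8. At 2 h against 0 h, SPBPB21E7.02c (0.48 against 0.68 RPKM) was under 5 RPKM in both libraries and could not be called. Of the 7, 0 were called 4-fold and 1 was called 2-fold lower, beside 1.88% and 13.1% of all genes that could be called. These counts lie near the background.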
